A study of Homo sapiens with 4 samples.

Results

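Described here are 10 genes of the TGF-beta family and its signalling pathway: the ligand genes INHBB, INHBA, GDF15, BMP2, BMP4, BMP7 and TGFB1, the extracellular antagonist FST, the inhibitory SMAD7 and the target gene ID1. They were taken by gene symbol from a table of 57746 genes, and all 10 were found. They were selected on their RPKM levels in these same 4 libraries, so their own differences are a description; where a fit across all genes covers them, nothing is read from its calls on them. The study sequenced RNA from 4 lines of the human colorectal cancer line DLD1 to study switches between epithelial and mesenchymal states in metastasis. SA came from soft agar colonies, SPH from colonospheres, and both carry the label mesenchymal. METS came from a xenograft's lung metastasis and carries the label epithelial, as does the parental DLD1. All 4 lines were kept in McCoy's 5A medium with fetal bovine serum, penicillin and streptomycin, and the labels give no other treatment. Whether a derived line is 1 clone, and which host carried the xenograft, are not stated in the labels. With 1 library per line, no difference between a pair of lines can be checked against replicates.

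Ligands of the TGF-beta family are secreted as dimers that are cut from a larger precursor, and they bind pairs of type I and type II receptor kinases. TGF-beta and activin receptors phosphorylate SMAD2 and SMAD3, while BMP receptors phosphorylate SMAD1, SMAD5 and SMAD9, and both kinds of SMAD enter the nucleus with SMAD4. In the intestine BMP signals are known to oppose crypt stem cell renewal, and TGF-beta is known to restrain epithelial growth and to favour mesenchymal traits in carcinoma cells. Activins are dimers of the inhibin beta subunits, and follistatin, the product of FST, binds and blocks them.

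The start regions of 3 members are shown because INHBB and GDF15 were both lower in the mesenchymal lines and ID1 is the textbook target of BMP signals. Each run is the RefSeq window of GRCh38.p14 from 250 bases before to 50 bases after the annotated start, all 3 on the plus strand. Capitals mark CAGAC or its reverse complement, which holds the core letters that SMAD3 and SMAD4 bind, and GGCGCC, a GC-rich motif bound by SMAD proteins. The windows are chr2:120345886-120346185 for INHBB, chr19:18385908-18386207 for GDF15 and chr20:31605039-31605338 for ID1.
INHBB: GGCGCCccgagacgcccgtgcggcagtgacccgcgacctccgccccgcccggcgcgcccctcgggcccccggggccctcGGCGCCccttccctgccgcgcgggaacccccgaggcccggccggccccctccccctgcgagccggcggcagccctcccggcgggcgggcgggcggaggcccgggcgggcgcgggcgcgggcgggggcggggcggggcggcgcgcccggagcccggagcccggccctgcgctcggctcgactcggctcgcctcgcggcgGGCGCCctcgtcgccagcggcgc
GDF15: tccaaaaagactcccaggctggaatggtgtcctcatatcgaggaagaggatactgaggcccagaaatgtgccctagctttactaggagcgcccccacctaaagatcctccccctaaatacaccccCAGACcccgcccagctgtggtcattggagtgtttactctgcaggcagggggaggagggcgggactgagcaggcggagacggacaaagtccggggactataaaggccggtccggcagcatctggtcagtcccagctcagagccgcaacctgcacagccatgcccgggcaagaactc
ID1: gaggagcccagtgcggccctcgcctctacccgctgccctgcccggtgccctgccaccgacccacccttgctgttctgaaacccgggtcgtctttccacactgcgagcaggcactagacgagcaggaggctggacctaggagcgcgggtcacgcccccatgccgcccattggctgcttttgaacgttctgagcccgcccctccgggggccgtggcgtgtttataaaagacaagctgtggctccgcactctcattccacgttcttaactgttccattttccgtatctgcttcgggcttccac
The INHBB window held GGCGCC 3 times and no CAGAC, and 88.7% of its bases were G or C, against a median of 58.7% over all 35116 windows. In the GDF15 window there was 1 CAGAC, no GGCGCC and 59.3% G or C. The ID1 window, with 62.7% G or C, held neither. On either strand CAGAC lies in 45.3% of all windows and GGCGCC in 19.2%. Among the 8 members with a window, 4 held CAGAC and 2 held GGCGCC. Members whose levels differed little between the lines held them too: BMP4 held both motifs and SMAD7 held CAGAC. The palindrome GTCTAGAC, found in 0.202% of windows, and TGATGCAA, an element read by ATF4 and its partners and found in 0.866%, were in none of the 8 members' windows searched (for genes with several starts, the first listed). No motif overlapped another. These matches describe letters only.

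Values are reads scaled to gene length and library size (RPKM). At 1 RPKM a transcript of 1 kb corresponded to about 48.5 reads in SA, 52.9 in SPH, 50.3 in METS and 53.9 in DLD1, estimated from the steps of low values. The intervals below are 95% intervals built on these estimates and cover counting error only. Of 8 markers of colon epithelium 7 reached 1 RPKM in every line, with EPCAM at 222, 231, 263 and 212 RPKM in SA, SPH, METS and DLD1. Of 9 mesenchymal markers, VIM among them, 3 reached 1 RPKM in SA and in SPH and 0 in METS and DLD1, with summed levels of 21.7, 21.2, 1.01 and 1.1 RPKM, and ZEB2 was listed at 0 in all 4. Markers of fibroblasts, leukocytes, endothelium and erythroid cells each summed to at most 0.49 RPKM in any line, and none of them reached 1 RPKM. In RNA from whole cultures, fewer cells that use a gene and less RNA per cell cannot be told apart.

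Of the 10 members 7, namely INHBB, GDF15, BMP2, BMP4, TGFB1, SMAD7 and ID1, were above 1 RPKM in every line, while INHBA, BMP7 and FST stayed under 1 RPKM in all lines. BMP4 was by far the most abundant ligand, ranking 110 in SA, 112 in SPH, 104 in METS and 125 in DLD1 among all listed genes. INHBB and GDF15 were lower in SA and SPH than in METS and DLD1. BMP2 and TGFB1 were highest in DLD1, and ID1 was highest in METS.

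**Figure D1:**
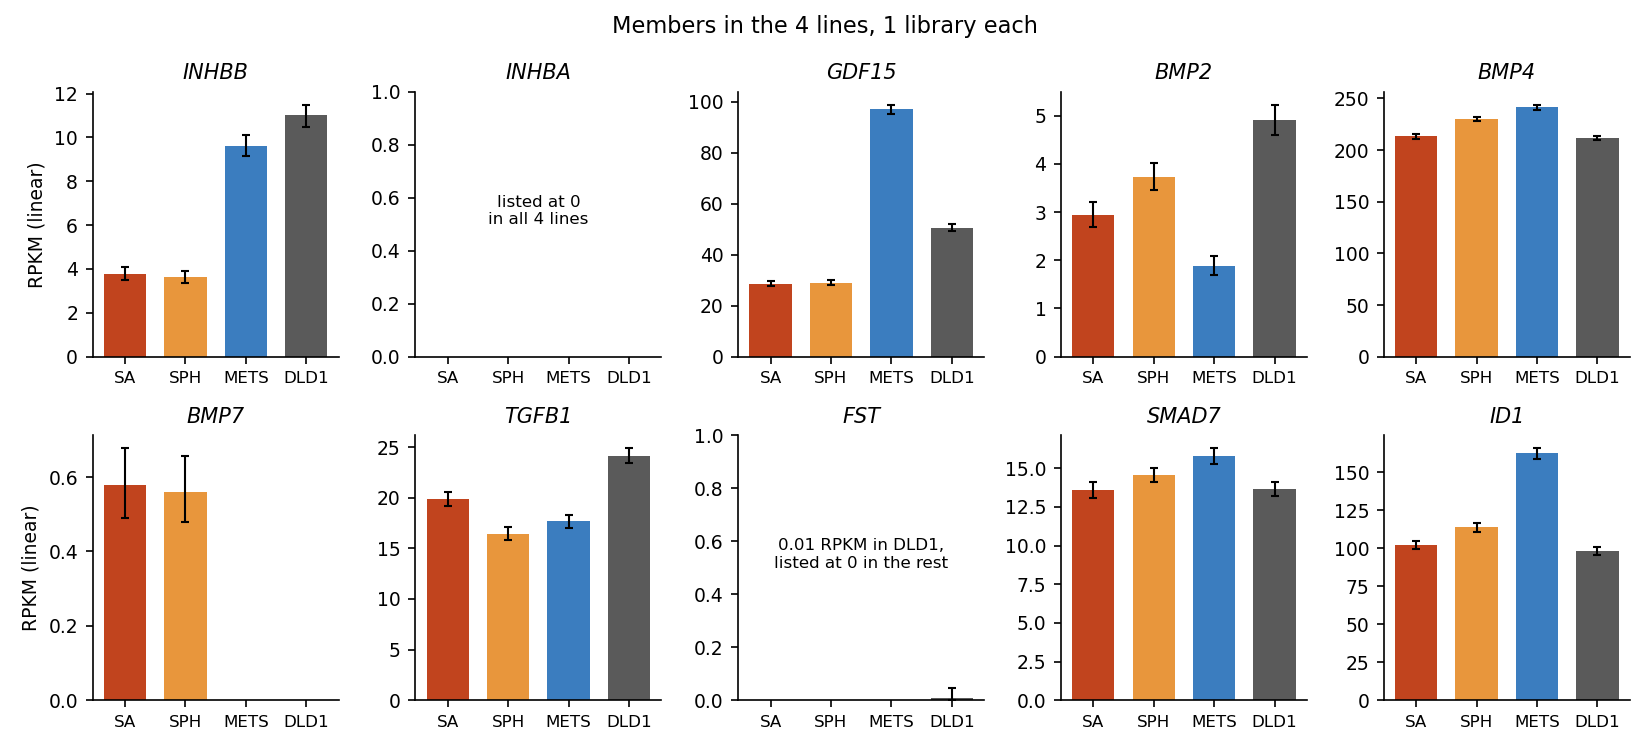
Level of each member in SA, SPH, METS and DLD1 (bars, RPKM, each panel with its own linear axis from 0); black lines are 95% intervals from counting error on estimated reads, with 1 library per line. INHBB stands at 3.78 and 3.62 RPKM in the SA and SPH lines, against 9.62 and 11.01 in METS and DLD1, and GDF15 is highest in METS at 97.0 RPKM.

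Among the activin subunits only INHBB, the inhibin beta B subunit, reached 1 RPKM in these lines. INHBB stood at 3.78 RPKM in SA and 3.62 in SPH, against 9.62 in METS and 11.01 in DLD1. Both mesenchymal lines thus lay below both epithelial lines, and their levels differed little from each other. SA held 0.343 times the DLD1 level (interval 0.313 to 0.377), SPH 0.329 times (0.30 to 0.36) and METS 0.874 times (0.817 to 0.934). On the log2(RPKM + 1) scale the 2 mesenchymal lines averaged 2.23 and the 2 epithelial lines 3.50, a difference of -1.26 ± 0.12 (SE from the limma fit). INHBA, the beta A subunit, was listed at 0 in all 4 lines. FST was listed at 0 in SA, SPH and METS and at 0.01 RPKM in DLD1. The related antagonist FSTL3 stood at 5.48, 5.22, 10.95 and 6.57 RPKM in SA, SPH, METS and DLD1, lower in both mesenchymal lines than in both epithelial lines. Its class difference of -0.58 ± 0.22 did not pass (adjusted p = 0.54, limma-trend).

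A different beta subunit was higher in the mesenchymal lines. INHBE, which encodes inhibin beta E and is best known from liver, stood at 0.88 RPKM in SA and 0.98 in SPH, against 0.06 in METS and 0.04 in DLD1. The SA level was 22 times that of DLD1 (interval 10.3 to 47.1) and the SPH level 24.5 times (11.5 to 52.2), on about 7 estimated reads in DLD1. INHBE lay under 1 RPKM in all lines, was not tested, and was named after its values were seen. INHA, the alpha subunit that turns activins into inhibins, did not exceed 0.17 RPKM.

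GDF15, a distant member of the family that cells secrete under stress, was low in the mesenchymal lines and high in METS. It stood at 28.6 RPKM in SA, 28.9 in SPH, 97.0 in METS and 50.6 in DLD1. SA and SPH were nearly alike, and the 2 epithelial lines were far apart. SA and SPH held 0.565 (interval 0.54 to 0.591) and 0.571 (0.547 to 0.596) times the DLD1 level, and METS 1.92 times (1.85 to 1.98). The class difference was -1.26 ± 0.28 (log2(RPKM + 1), SE), as large as that of INHBB but with more than 2 times its error. Without METS it was -0.79 and without DLD1 -1.72. Its known receptor pair was nearly silent, with RET listed at 0 in all lines and GFRAL at 0.02 RPKM or lower.

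Genes of the ATF4 and p53 stress responses, which also control GDF15, were set beside it. Of 15 listed genes 14 were tested between the classes, and 0 passed an adjusted p of 0.05 by limma-trend, while 4 had an unadjusted p under 0.05, as did 974 of the 11262 genes tested. Their median class difference was -0.05, against 0.04 over all genes tested. Both mesenchymal lines lay below both epithelial lines for 4 of the 14 and above them for 2, against 13.1% and 24.7% of all genes tested. The glutathione-degrading enzyme CHAC1 stood at 4.58 and 3.2 RPKM in the SA and SPH lines, against 11.4 and 9.96 in METS and DLD1 (-1.27 ± 0.17, adjusted p = 0.06, limma-trend). Asparagine synthetase, ASNS, stood at 25.6 and 24.3 RPKM against 48.6 and 37.6 (-0.75 ± 0.14, adjusted p = 0.23, limma-trend). The transcription factor ATF3 stood at 2.06 and 1.32 RPKM against 3.23 and 2.87, and ATF4 itself at 156 and 157 against 191 and 188. These are the 4 of the 14 that were lower in both mesenchymal lines, as GDF15 was. Other ATF4 targets differed from them: DDIT3 stood at 2.74 and 2.07 RPKM in the SA and SPH lines, above 1.93 and 1.97 in METS and DLD1, and TRIB3 at 50.9 and 63.1 RPKM against 53.3 and 63.8. DDIT3 and TRIB3 were named after their values were seen. The p53 targets CDKN1A and MDM2 did not share that order. CDKN1A stood at 8.91, 8.45, 9.72 and 7.75 RPKM in SA, SPH, METS and DLD1, and MDM2 at 6.67, 6.38, 6.61 and 6.0 RPKM. TP53I3, of the same list, stood at 10.9 and 11.5 RPKM in the SA and SPH lines, above 9.75 and 9.14 in METS and DLD1. BTG2 and ZMAT3, also of that list, overlapped between the classes but were highest in METS, as GDF15 was. They stood there at 5.11 and 2.57 RPKM, against 2.78 and 1.74 in DLD1. BBC3 was instead highest in SPH, at 8.02 RPKM against 6.26 in METS. CDKN1A, MDM2, TP53I3, BTG2, ZMAT3 and BBC3 too were named after their values were seen.

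BMP4, a BMP ligand that colorectal cancer cells are known to make themselves, stood at 214 RPKM in SA, 230 in SPH, 241 in METS and 212 in DLD1. The 4 lines lay within 1.14 times of each other, and the classes overlapped. By summed level over 33 ligand genes of the family, BMP4 held 70.3% in SA, 72.7% in SPH, 61.4% in METS and 64.4% in DLD1. GDF15 followed with 9.42%, 9.13%, 24.7% and 15.4% in the same order of lines. INHBB held 1.24% in SA and 1.14% in SPH, against 2.45% in METS and 3.35% in DLD1. Only 9 of the 33 ligands reached 1 RPKM in any line, and 7 were listed at 0 in all 4.

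**Figure D2:**
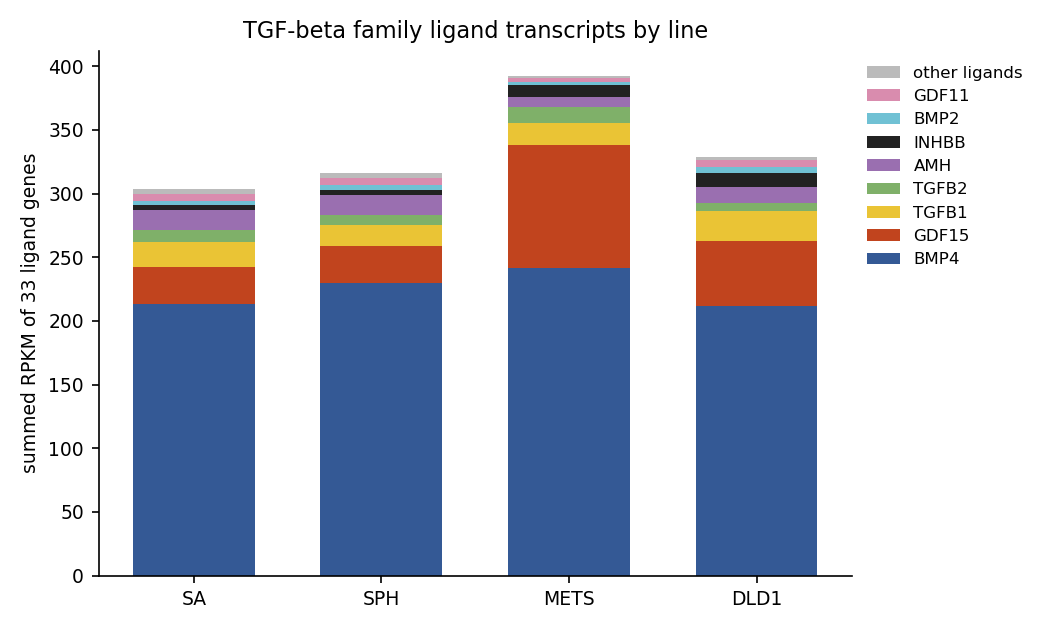
Summed level of 33 TGF-beta family ligand genes (stacked bars, RPKM, linear axis from 0) in SA, SPH, METS and DLD1, with 1 library per line. BMP4 makes up 61.4% to 72.7% of each bar, and the sum is largest in METS at 392.5 RPKM, where GDF15 holds 24.7%.

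BMP2, the close relative of BMP4, was far less abundant and differed more. It stood at 2.94 RPKM in SA, 3.73 in SPH, 1.88 in METS and 4.91 in DLD1. All 3 derived lines lay below DLD1, METS lowest, and the class ranges overlapped. METS held 0.383 times the DLD1 level (interval 0.338 to 0.433), SA 0.599 times (0.538 to 0.667) and SPH 0.76 times (0.689 to 0.837). BMP4 exceeded BMP2 72.7-fold in SA, 61.7-fold in SPH, 128-fold in METS and 43.1-fold in DLD1 by RPKM.

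BMP7, a BMP ligand known for its role in kidney development, had values above 0 in SA and SPH. It stood at 0.58 RPKM in SA (interval 0.49 to 0.678, about 152 estimated reads) and 0.56 in SPH (0.478 to 0.656, about 161 reads), and was listed at 0 in METS and DLD1. BMP6, another BMP ligand, stood at 0.18 RPKM in SA and 0.22 in SPH and was listed at 0 in METS and DLD1. Both lay under 1 RPKM in every line and were not tested, and BMP6 was named after its values were seen. BMP7 overlaps the antisense gene BMP7-AS1 in GENCODE 29, though not in exons, and whether counting used strand is not stated. Among the listed extracellular antagonists and modulators, NOG did not exceed 0.09 RPKM, CHRD 0.02 and GREM1 0.01. Others on that list were far higher in all lines, NBL1 at 49.4 to 54.7 RPKM, TWSG1 at 39.8 to 45.2 and CRIM1 at 15.2 to 24.9. NBL1 shares exonic bases with MINOS1 and MINOS1-NBL1 in GENCODE 29. The pseudoreceptor BAMBI stood at 19.2 and 18.4 RPKM in the SA and SPH lines, against 10.3 and 15.5 in METS and DLD1 (0.53 ± 0.19, adjusted p = 0.51, limma-trend).

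TGFB1 was highest in the parental line. It stood at 19.9 RPKM in SA, 16.4 in SPH, 17.7 in METS and 24.1 in DLD1. All 3 derived lines were below DLD1, at 0.823 (interval 0.786 to 0.862), 0.682 (0.65 to 0.715) and 0.732 (0.698 to 0.767) times its level for SA, SPH and METS. The class ranges overlapped. TGFB1 shares exonic bases with HNRNPUL1 in GENCODE 29, and reads there cannot be assigned to either without strand.

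TGFB2, a ligand for the same receptors, was lowest in DLD1, at 9.09 RPKM in SA, 8.15 in SPH, 12.6 in METS and 5.99 in DLD1. The levels in SA, SPH and METS were 1.52, 1.36 and 2.1 times that of DLD1 (intervals 1.42 to 1.62, 1.28 to 1.45 and 1.98 to 2.23). The ratio of TGFB1 to TGFB2 was 2.18 in SA, 2.02 in SPH, 1.4 in METS and 4.03 in DLD1. TGFB3 did not exceed 0.16 RPKM.

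Latency and processing genes differed in their order over the lines. LTBP1, which tethers latent TGF-beta to the matrix, stood at 5.15, 4.3, 3.82 and 5.17 RPKM in SA, SPH, METS and DLD1. LTBP4 stood at 3.37 and 4.76 RPKM in the SA and SPH lines, against 3.25 and 2.35 in METS and DLD1 (0.41 ± 0.19, adjusted p = 0.62, limma-trend). LTBP2, a matrix protein of the same family that does not bind latent TGF-beta, stood at 0.75 and 0.84 RPKM in the SA and SPH lines, against 0.09 and 0.07 in METS and DLD1, too low to be tested and named after its values were seen. The convertase FURIN, which cuts the precursors, stood at 15.2 and 18.7 RPKM against 19.5 and 21.8. THBS1, an activator of latent TGF-beta, stood at 15.9, 12.4, 9.89 and 16.3 RPKM in SA, SPH, METS and DLD1. Of 9 tested extracellular antagonists and modulators and of 4 tested proteases 0 passed between the classes by limma-trend, while 2 and 1 had an unadjusted p under 0.05, against 974 of 11262 over all genes.

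**Figure D3:**
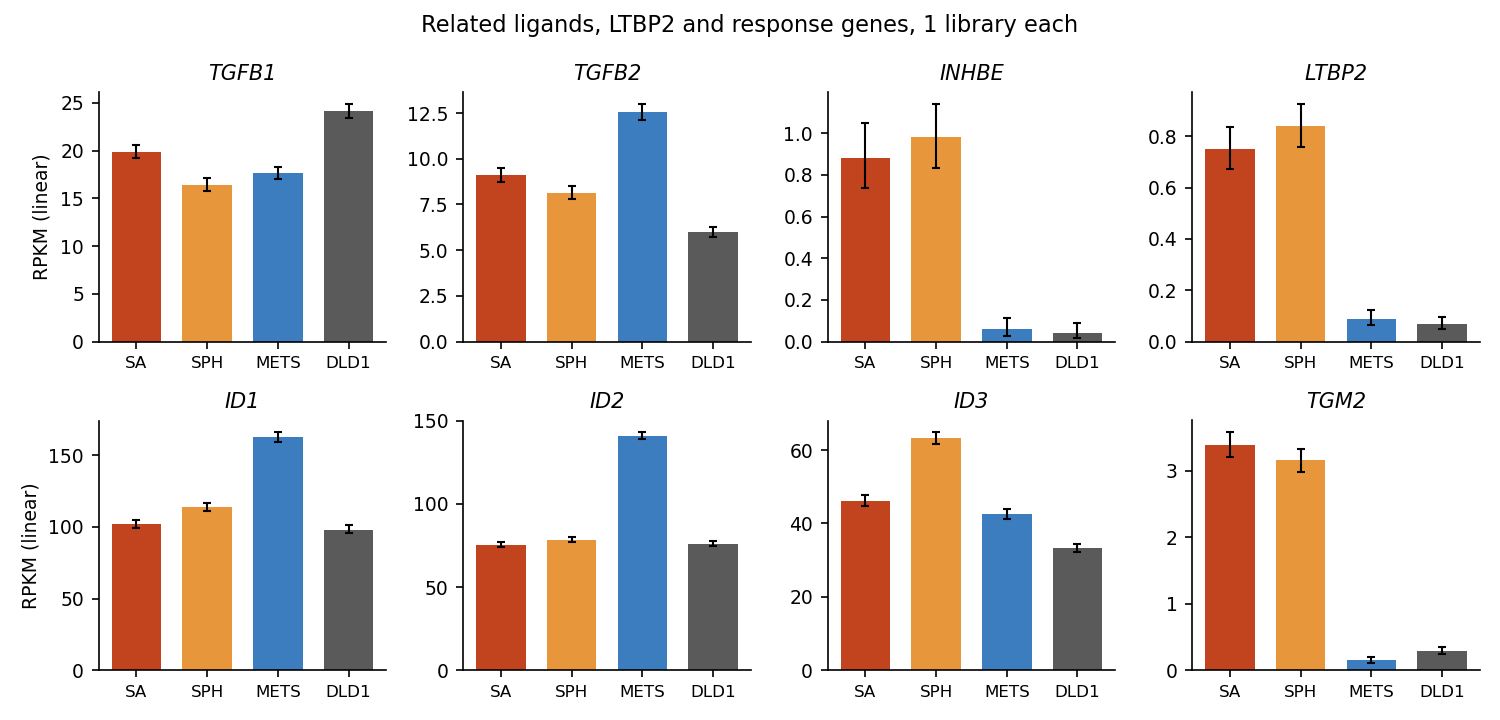
Levels of TGFB1, TGFB2, INHBE, LTBP2, ID1, ID2, ID3 and TGM2 in SA, SPH, METS and DLD1 (bars, RPKM, each panel with its own linear axis from 0); black lines are 95% intervals from counting error, with 1 library per line. TGFB1 is highest and TGFB2 lowest in DLD1, and TGM2 stands at 3.39 and 3.16 RPKM in the SA and SPH lines, against 0.15 and 0.29 in METS and DLD1.

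Receptors were present in all lines at modest levels. Of 17 listed, 9 reached 1 RPKM, and 0 of these 9 passed between the classes by limma-trend. Their median class difference was -0.01, and 1 had an unadjusted p under 0.05, against 974 of 11262 over all genes. TGFBR2, the type II receptor of TGF-beta, was the most abundant, at 26.8 and 30.4 RPKM in the SA and SPH lines, against 18.8 and 22.4 in METS and DLD1 (0.46 ± 0.13, adjusted p = 0.40, limma-trend). Its type I partner TGFBR1 stood at 5.95, 5.22, 8.18 and 5.87 RPKM in SA, SPH, METS and DLD1. The activin receptors ACVR1B and ACVR2A lay between 3.46 and 4.28 and between 2.7 and 3.25 RPKM, and ACVR2B between 0.71 and 0.82. For BMPs, BMPR1A lay between 2.61 and 3.07 RPKM and BMPR2 between 2.45 and 3.08. Both mesenchymal lines lay above both epithelial lines for 4 of the 9 tested receptors, TGFBR2, ACVR1B, ACVR2A and BMPR2. They lay below them for 0 of the 9, and the shares over all genes tested were 24.7% above and 13.1% below.

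SMAD7, which blocks type I receptors and is itself induced by TGF-beta and BMP, was among the steadiest members. It stood at 13.6 RPKM in SA, 14.5 in SPH, 15.8 in METS and 13.6 in DLD1, with overlapping classes. SA held 0.996 times the DLD1 level (interval 0.951 to 1.04), SPH 1.07 times (1.02 to 1.12) and METS 1.16 times (1.10 to 1.21). Among the effectors SMAD2 lay between 5.21 and 5.75 RPKM, SMAD4 between 4.82 and 5.33, SMAD1 between 2.61 and 3.28 and SMAD5 between 8.28 and 9.91. SMAD3 stood at 6.99, 6.12, 5.41 and 8.0 RPKM in SA, SPH, METS and DLD1. Of 17 tested SMADs and intracellular regulators besides SMAD7, 0 passed between the classes by limma-trend. Their median difference was 0.01, and 1 had an unadjusted p under 0.05, against 974 of 11262 over all genes. The corepressor gene SKIL, a feedback target of TGF-beta, stood at 2.54 and 2.65 RPKM in the SA and SPH lines, against 1.9 and 1.84 in METS and DLD1 (0.32 ± 0.11, adjusted p = 0.51, limma-trend).

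ID1, an inhibitor of basic helix-loop-helix factors and a direct BMP target, was highest in METS. It stood at 102 RPKM in SA, 114 in SPH, 163 in METS and 98.2 in DLD1. METS stood alone above the other lines, so the 2 epithelial lines lay at opposite ends. METS held 1.66 times the DLD1 level (interval 1.61 to 1.71), SPH 1.16 times (1.12 to 1.20) and SA 1.04 times (1 to 1.07). ID2 had a like order, at 75.4, 78.5, 141 and 76.1 RPKM in SA, SPH, METS and DLD1, and METS held 1.85 times the DLD1 level (1.81 to 1.90). ID3 differed from both, at 46.2 RPKM in SA, 63.2 in SPH, 42.4 in METS and 33.4 in DLD1, highest in SPH. The ratio of ID1 to ID3 was 2.21 in SA, 1.8 in SPH, 3.83 in METS and 2.94 in DLD1.

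The MSX genes, also BMP targets, did not share the METS peak. The homeobox gene MSX2 stood at 14.4, 14.4, 6.61 and 15.3 RPKM in SA, SPH, METS and DLD1, and MSX1 at 11.5, 9.89, 5.78 and 9.9. MSX2 was the 1 gene of 8 tested BMP response genes other than members at least 2-fold apart from DLD1 in METS, and it was lower. Among all genes of at least 1 RPKM 1.42% were that far apart, 0.523% higher and 0.896% lower. Between the classes 0 of the 8 BMP response genes passed (limma-trend, 2 at an unadjusted p under 0.05, against 974 of 11262 over all genes).

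Among the TGF-beta and activin response genes, the transglutaminase gene TGM2 was higher in the mesenchymal lines. It stood at 3.39 and 3.16 RPKM in the SA and SPH lines, against 0.15 and 0.29 in METS and DLD1. The SA and SPH levels were 11.7 and 10.9 times that of DLD1 (intervals 9.74 to 14.0 and 9.08 to 13.1), and METS held 0.517 times the DLD1 level (0.381 to 0.702). TGM2 was higher by 1.81 ± 0.13 (SE, log2(RPKM + 1)) in SA and SPH (adjusted p = 0.0092, limma-trend, higher in 2 of 2 lines). It reached 1 RPKM only in SA and SPH, so it entered the test through the lines where it was high, which limits what that p can show. TGM2 shares exonic bases with RPRD1B in GENCODE 29. It did not pass with no filter on low values (adjusted p = 0.1, limma-trend), and was too low for a minimum of 5 RPKM. Nor did it pass without SA or without SPH, where its class difference was 1.77 and 1.85.

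Of the 15 TGF-beta and activin response genes tested besides SMAD7, 2 passed, both higher, and 4 had an unadjusted p under 0.05 (limma-trend). Over all genes tested 40 of 11262 passed, 36 of them higher, and 974 had an unadjusted p under 0.05. The median difference of the 15 was 0.24, against 0.04 over all genes. Of the 15, 12 lay above 0 and 3 below, against 6821 and 4441 of all 11262 genes tested. Both mesenchymal lines lay above both epithelial lines for 5 of the 15 and below them for 0, against 24.7% and 13.1% of all genes tested. The list was chosen with earlier results of these data known, and TGM2 met the filter only through SA and SPH. These counts are therefore a description of the list, not a test of it. The other 10 overlapped, CTGF, CYR61 and ITGB6 among them. The matricellular gene CTGF stood at 9.65, 7.77, 3.38 and 9.26 RPKM in SA, SPH, METS and DLD1, lowest in METS. CYR61 stood at 28.7, 17.2, 24.6 and 42.4 RPKM, highest in DLD1. The integrin subunit ITGB6, part of a receptor that activates latent TGF-beta, stood at 1.9, 2.66, 0.1 and 1.92 RPKM. PMEPA1, a feedback inhibitor induced by TGF-beta, lay between 0.93 and 1.6 RPKM, and its class difference of 0.24 ± 0.14 did not pass (adjusted p = 0.73, limma-trend). PMEPA1 shares exonic bases with NKILA, and ID2 with ID2-AS1, in the same annotation. JUNB was listed at 0.05 RPKM or lower in all lines and shares exonic bases with HOOK2 in GENCODE 29.

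The classes were compared over all genes with 2 lines in each, so the spread behind each p is that between lines, not between cultures of a line. SA, SPH and METS all derive from DLD1, so the lines are related, while the fit treats them as independent. Of the 7 members tested 1 passed, INHBB, and it was lower; 40 of 11262 genes, or 0.355%, passed in either direction and 4, or 0.0355%, were lower. This contrast was known when the members were picked, so nothing is read from that count. INHBB did not pass without SA or without SPH. Both mesenchymal lines lay below both epithelial lines for 2 of the 7 members, INHBB and GDF15, against 13.1% of all genes tested, and above them for 0 of 7, against 24.7%. The 3 other members, INHBA, BMP7 and FST, did not reach the minimum of 1 RPKM in 2 libraries. Over the 63 tested pathway genes that are neither members nor stress genes, 2 passed, TGM2 among them, and 11 had an unadjusted p under 0.05, against 974 of 11262 over all genes. Their lists too were chosen with earlier results of these data known.

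**Figure D4:**
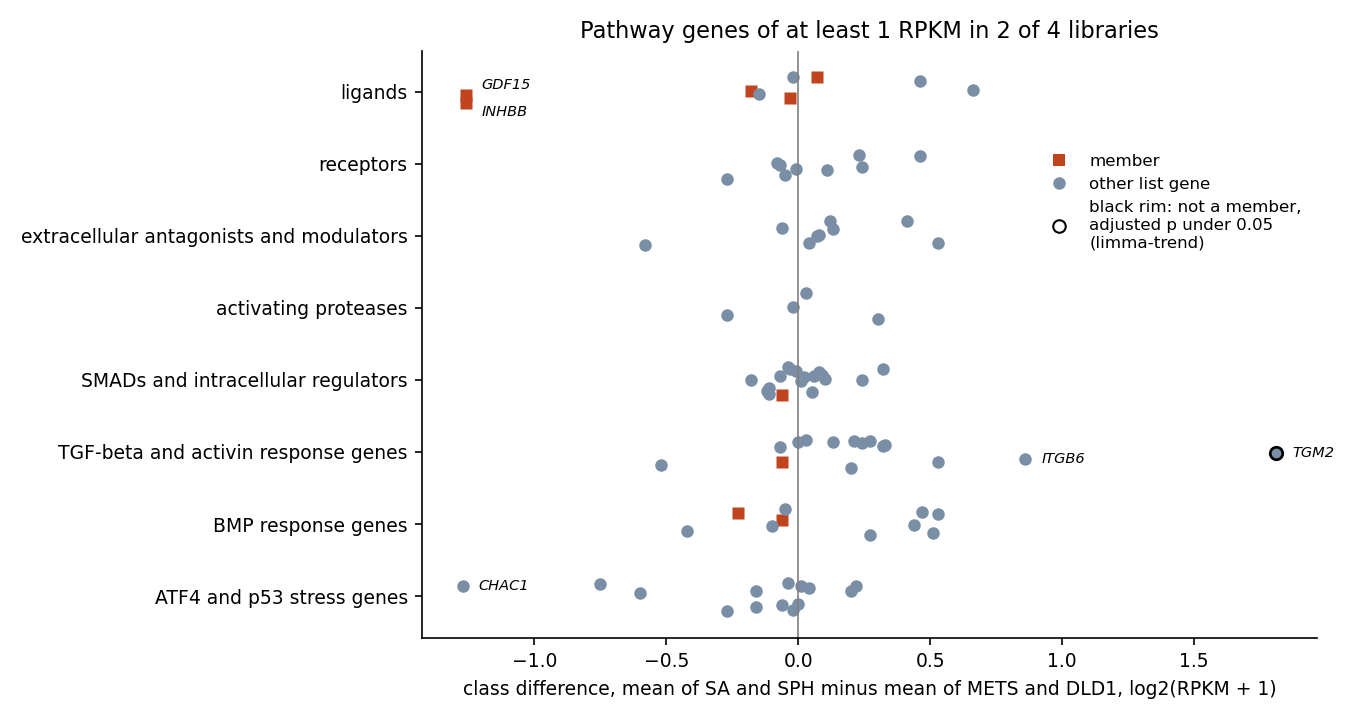
Difference between the mean of SA and SPH and the mean of METS and DLD1 (horizontal axis, log2(RPKM + 1)) for the tested genes of 8 lists (rows), 1 left out; red squares are members, grey circles other genes, and a black rim marks a gene other than a member with adjusted p under 0.05 (limma-trend); the height within a row has no meaning. INHBB and GDF15 lie at -1.26 and the other members between -0.23 and 0.07, while TGM2 lies at 1.81.

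Line by line, few members passed 2-fold on the log2(RPKM + 1) scale. In SA against DLD1 1 of 7 members did, INHBB, lower (-1.33), where 0.677% of all genes of at least 1 RPKM were that far apart, 0.44% higher and 0.238% lower. In SPH against DLD1 it was again INHBB (-1.38), against 1.26% of all genes, 0.716% higher and 0.542% lower. In METS against DLD1 it was BMP2 (-1.04), against 1.42% of all genes, 0.523% higher and 0.896% lower. GDF15 in METS, at 0.92, lay just under that limit. With a pseudocount of 5 these 3 folds were -0.87, -0.89 and -0.53, and none reached 2-fold. Between SPH and SA 0 of 7 members differed 2-fold, against 0.262% of all genes. The 3 comparisons with DLD1 share its 1 library.

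**Figure D5:**
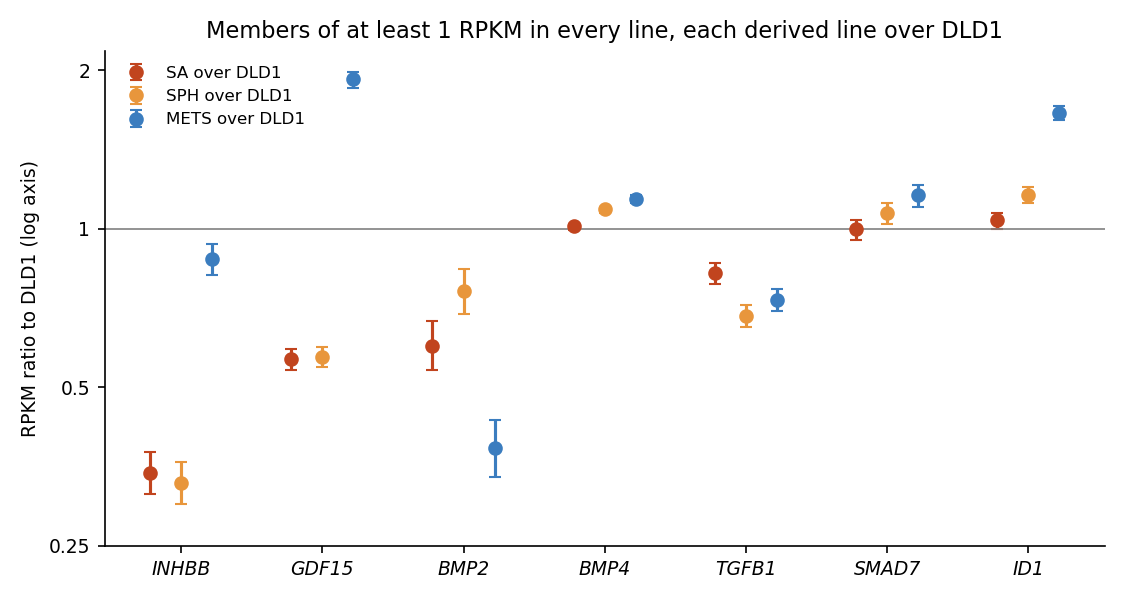
RPKM of SA, SPH and METS over that of DLD1 (vertical axis, log scale) for the 7 members of at least 1 RPKM in every line; error bars are 95% intervals from counting error on estimated reads, and the grey line marks equal levels. SA and SPH lie together for INHBB and GDF15, METS lies at 1.92 for GDF15 and 1.66 for ID1, and TGFB1 and BMP2 lie below 1 in all 3 derived lines.

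The genes whose levels over the 4 lines were most like those of a member were found by the distance between centred log2(RPKM + 1) values, over 11262 genes. Nearest to INHBB were the carbonic anhydrase CA2 (distance 0.24; 5.16, 5.05, 10.7 and 12.3 RPKM in SA, SPH, METS and DLD1), VILL (0.33) and LRFN1 (0.33). Nearest to GDF15 were KLF2 (0.31; 3.0, 3.18, 9.46 and 5.05 RPKM), FGFR3 (0.33) and PRSS3P2 (0.37). For ID1 they were PTBP3 (0.06), ATHL1 (0.08) and SDR16C5 (0.09), and for BMP2 HLA-B (0.07), CYP2S1 (0.13) and HRASLS2 (0.13). TGFB1 lay nearest to ACAT2 (0.03), OSBP2 (0.05) and EIF3C (0.06). BMP7, at its low level, lay nearest to LHFP (0.05), C9orf172 (0.06) and RP11-661A12.9 (0.07). LHFP stood at 2.06, 1.94, 0.86 and 0.92 RPKM in SA, SPH, METS and DLD1, while BMP7 was listed at 0 in METS and DLD1. At so low a level the BMP7 distances depend on the pseudocount of 1. HLA-B and EIF3C have near-identical copies among which reads may be split. With 4 libraries such likeness is a description only.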

How the data were processed

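Total RNA of 4 lines was made into Illumina libraries by standard protocols, 1 per line, per the labels. A single table, deposited by the authors, holds values to 2 decimals for each gene in each line. The deposited values were read as RPKM, scaled by the authors to gene length and library size, from the values themselves, as no label names the unit: they are not whole, and column sums run from 275639 to 284919. The submitters' processing notes name hg19 as the build; aligner, counting tool, annotation and use of strand are not stated there or in the labels.

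A value of 0 means here only that the gene is listed at 0. Depth was estimated as the strongest period in RPKM times exon length (GENCODE 29) over single-transcript genes of 200 to 500 bases. A weaker peak lay at about 2 times that depth (periodicity score 0.32 to 0.42, against 0.5 to 0.55, where 1 is perfect); the stronger and lower depth was used, which gives the wider intervals. Estimated reads carried exact Poisson intervals, and ratios carried normal intervals on the log scale.

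Values entered as log2(RPKM + 1). For the class comparison limma-trend was used (limma 3.58.1 in R 4.3.3), and p-values were adjusted by Benjamini-Hochberg over all genes of at least 1 RPKM in 2 of 4 libraries. An exact permutation of 2 against 2 lines cannot go below p = 0.333. A pair of lines was called apart at 2-fold among genes of at least 1 RPKM in the higher library.

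The members, lists and tests were chosen with earlier results of these data known. Named are the members, up to 4 other genes per list by class difference, genes that passed or lay 2-fold apart, fixed receptors, SMADs and targets, and 3 nearest genes per member with a range of at least 0.5; not all are printed, and 1 gene that list counts include is not reported here. Promoter windows are RefSeq's (GRCh38.p14), matched by symbol for 8 of 10 members. Python 3.11.15, pandas 2.3.3 and scipy 1.17.1 were used.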

Additional observations from a re-analysis of the deposited data

Results flagged for a closer look

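GDF15 and ASNS lay on opposite sides of DLD1 in the mesenchymal lines and in METS, each by at least 0.3 on the log2(RPKM + 1) scale. For GDF15 the METS difference from DLD1 (0.92) exceeded the mean of those of SA and SPH (-0.80 and -0.79) by 1.72. For ASNS, an ATF4 target, the METS difference (0.36) exceeded the mean of those of SA and SPH (-0.54 and -0.61) by 0.94. The difference was not tested, since each line has 1 library, and all 3 comparisons share the DLD1 library.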

How the results depend on the processing

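The count of genes that passed between the classes, 40, was 26 with a pseudocount of 0.1, 5 with a minimum of 5 RPKM, and 0 of 24097 with no filter on low values (2208 at an unadjusted p under 0.05, limma-trend). Leaving out 1 library gave 5 to 305 genes: 5 without SA, 6 without SPH, 27 without METS and 305 without DLD1. INHBB and TGM2 did not pass with no filter, without SA or without SPH. At a pseudocount of 0.1 the counts at least 2-fold apart were 211 (SA against DLD1), 350 (SPH against DLD1), 368 (METS against DLD1) and 117 (SPH against SA), against 77, 144, 160 and 30 at a pseudocount of 1. At a pseudocount of 5 they were 12, 24, 31 and 1, and at a minimum of 5 RPKM 29, 61, 88 and 16. The class difference of INHBB ran from -1.45 to -0.81 and that of GDF15 from -1.72 to -0.79. The 2-fold differences of members from DLD1 fell short of 2-fold at a pseudocount of 5: INHBB was at -0.87 in SA and -0.89 in SPH, and BMP2 at -0.53 in METS. With 1 library left out or another scaling or pseudocount, the class difference of BMP2 (0.07) ran from -0.45 to 0.58, that of ID1 (-0.23) from -0.59 to 0.13, that of TGFB1 (-0.18) from -0.40 to 0.03, that of BMP4 (-0.03) from -0.12 to 0.07 and that of SMAD7 (-0.06) from -0.15 to 0.04. The BMP4 difference of SA from DLD1 (0.01) was -0.01 with median-of-ratios scaling. BMP7, at 0.65, ran from 0.16 to 2.74 with the pseudocount. Depth limits some of the genes under 1 RPKM: NODAL rested on 6 to 28 estimated reads and FST on 2 in DLD1. Others had more reads and went untested because of the 1 RPKM minimum. BMP7 rested on about 152 in SA and 161 in SPH, and LTBP2 on about 331 and 404. No paired analysis was possible because each line has 1 library and the labels give no replicate numbers.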

Other observations

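Some ligands outside the members had orders of their own. GDF11, a relative of myostatin, stood at 6.04 RPKM in SA and 5.75 in SPH against 3.19 in METS and 4.97 in DLD1 (class difference 0.46 ± 0.18, adjusted p = 0.56, limma-trend). AMH, the hormone that regresses the Mullerian duct, stood at 16.0 and 15.6 RPKM in the SA and SPH lines, against 7.36 and 12.6 in METS and DLD1 (0.66 ± 0.23, adjusted p = 0.51, limma-trend). Its receptor AMHR2 did not exceed 0.04 RPKM. AMH lies next to SF3A2 in the RefSeq table and shares exonic bases with MIR4321 in GENCODE 29, as GDF11 does with SARNP. NODAL, whose signal needs a coreceptor, stood at 0.32 and 0.31 RPKM against 0.07 and 0.19 and was too low to be tested; it was named after its values were seen.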
